A study of Mus musculus with 6 samples.

Results

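The constitutive proteasome subunit genes were chosen by name, as the genes of the count table whose symbol is Psma, Psmb, Psmc or Psmd followed by a number, leaving out the inducible catalytic subunits Psmb8, Psmb9 and Psmb10. The rule gave 36 of 55023 listed genes, 16 of the core particle and 20 of the regulatory particle. RNA sequencing counted their transcripts in bone marrow-derived macrophages of the mouse, which are grown in culture from marrow precursors, after 24 h of treatment. The 3 groups of 2 libraries each received vehicle, LTα1β2, or LCL161 and LTα1β2 together. LTα1β2 is the membrane form of lymphotoxin and acts on the lymphotoxin β receptor, while LCL161 is a synthetic compound that antagonises the cellular inhibitors of apoptosis. LCL161 was not given alone, so its step was measured only on top of LTα1β2. The labels give no strain, genotype or age and do not say whether the 2 libraries of a group came from separate animals or cultures, so a p-value reflects the spread of these libraries alone, which may be technical.

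The 26S proteasome degrades proteins tagged with ubiquitin. Its core particle is a barrel of α and β rings with the proteolytic sites on 3 of the β subunits, and its regulatory particle, made of a base with ATPases and a lid, recognises, unfolds and feeds in the substrate. In immune cells, interferon and related signals bring in inducible catalytic subunits that replace the constitutive ones in newly assembled barrels. The transcription factor NFE2L1 is known for raising proteasome subunit genes when proteasome activity falls.

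Library totals were 14718368 to 19049613 reads, and the 36 genes together took 0.518% to 0.626% of them. All 8 macrophage markers examined were present, with a summed level of 27510 to 33970 CPM (the count scaled to library size) in vehicle, 32350 to 33060 with LTα1β2 and 32120 to 33820 with LCL161 plus LTα1β2. Other markers moved with the treatment. The 10 stromal markers summed to 5511 and 8257 CPM in vehicle, 2193 and 3103 CPM with LTα1β2 and 586 and 657 CPM with both agents, and 7 of the 9 tested were called lower in every comparison. The 10 proliferation genes summed to 620 and 734 CPM, then 335 and 395 CPM, then 117 and 134 CPM. The 6 neutrophil markers summed to 537 and 788 CPM, then 813 and 1037 CPM, then 363 and 386 CPM. T cell and B cell markers stayed at summed levels of at most 12.4 CPM, and the T cell markers Cd3d, Cd3g and Cd2 and the B cell marker Pax5 did not pass the filter on low counts. The part of these shifts in the results below was not tested, and in bulk RNA fewer cells of a type and less RNA per cell cannot be told apart.

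Promoter windows were matched for 29 of the 36 genes in the RefSeq table of build GRCm38.p6. Windows of 4 genes are shown because their mRNAs made the largest steps described below or, for Psmb5, complete the catalytic genes with a matched window: Psma5 at chr3:108256676-108256955 on the plus strand, Psmb5 at chr14:54617966-54618245 on the minus strand, Psmb6 at chr11:70525107-70525386 on the plus strand and Psmd10 at chrX:140956682-140956961 on the minus strand. Each runs 5′ to 3′ from 250 bases before the annotated start to 30 bases after it. Capitals mark TGANNNNGC, the core of the antioxidant response element that NFE2L1 and NFE2L2 bind, in Psma5, Psmb5 and Psmb6, and the CCAAT box in Psmd10, on either strand.
Psma5: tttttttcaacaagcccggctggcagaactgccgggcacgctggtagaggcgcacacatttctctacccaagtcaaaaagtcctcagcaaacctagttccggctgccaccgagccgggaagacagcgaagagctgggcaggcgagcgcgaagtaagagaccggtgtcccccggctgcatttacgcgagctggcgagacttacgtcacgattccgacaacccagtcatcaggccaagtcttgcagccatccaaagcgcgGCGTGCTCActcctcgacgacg
Psmb5: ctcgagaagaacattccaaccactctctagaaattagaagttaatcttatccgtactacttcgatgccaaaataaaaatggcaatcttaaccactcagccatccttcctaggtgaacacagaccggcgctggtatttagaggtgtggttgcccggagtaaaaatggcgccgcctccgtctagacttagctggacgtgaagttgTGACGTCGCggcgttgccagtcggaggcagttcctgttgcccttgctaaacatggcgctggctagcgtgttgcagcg
Psmb6: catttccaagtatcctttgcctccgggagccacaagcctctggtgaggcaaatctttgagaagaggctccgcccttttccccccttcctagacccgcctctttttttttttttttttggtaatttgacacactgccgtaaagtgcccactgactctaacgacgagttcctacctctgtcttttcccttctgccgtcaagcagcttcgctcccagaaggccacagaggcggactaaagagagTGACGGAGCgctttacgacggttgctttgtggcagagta
Psmd10: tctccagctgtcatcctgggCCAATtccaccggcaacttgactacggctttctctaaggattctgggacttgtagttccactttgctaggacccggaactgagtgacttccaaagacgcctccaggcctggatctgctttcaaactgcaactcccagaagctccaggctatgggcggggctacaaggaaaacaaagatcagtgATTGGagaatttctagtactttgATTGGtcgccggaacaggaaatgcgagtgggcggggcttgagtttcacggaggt
Over full windows of 300 bases, with both strands searched, TGANNNNGC was present in 18 of 31 windows of these genes (58.1%) and in 41.3% of all 32851 windows. By gene it was found for 9 of 12 core genes, among them Psmb11, which had too few reads to test, and 8 of 17 regulatory genes. No share by gene was computed over all genes, and 2 of the subunit genes had more than 1 window. Whether the particles differ in this was not tested. CCAAT was present in 38.7% of the windows against 37.4% of all windows and the gamma-activated site TTCNNNGAA in 3.23% against 8.3%. These are descriptions of letters in a window, and a match is not a site of binding.

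In vehicle-treated macrophages 35 of the 36 genes were measurable. Psmb11, the catalytic subunit of the thymus proteasome, had 0 to 10 reads per library and did not pass the filter on low counts, and Psma8, the testis α subunit, was the lowest of the 35. Scaled to transcript length (RPKM, the CPM per kilobase of transcript), the 14 core genes other than these 2 had a median of 112 and 107 in the vehicle libraries, and the 17 regulatory genes other than the assembly chaperones had 77.9 and 75.2. Psmb6 was the highest core gene at 253 and 261, Psmb7 the lowest at 46.2 and 42.8. Psmd8 was the highest regulatory gene at 160 and 163, and Psmc6 the lowest at 36.3 and 33.1. Within a particle, the highest gene had 4.42-fold to 6.11-fold the RPKM of the lowest in the vehicle libraries. With both agents the core median was 210 and 211 RPKM and the regulatory median 91.9 and 97.2.

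**Figure D1:**
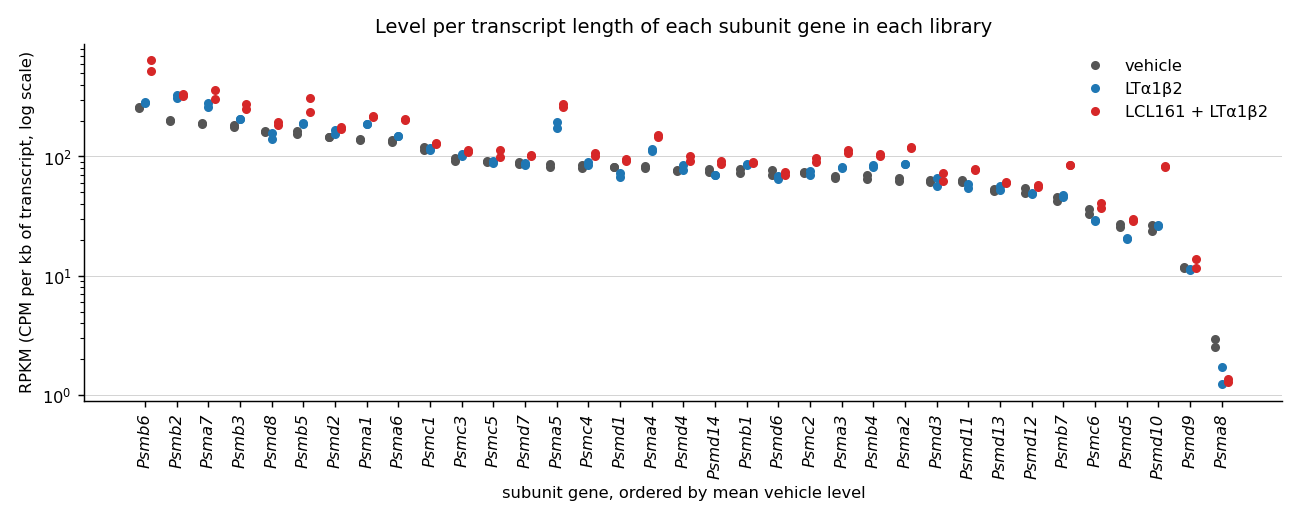
Level of each subunit gene as RPKM, the CPM per kilobase of transcript (log scale), for 35 genes ordered by their mean vehicle level; each dot is 1 library, coloured by group. Psmb6 has the highest vehicle level and Psma8 the lowest, and Psma5, Psmb6 and Psmd10 have the LCL161 plus LTα1β2 libraries (red) well above vehicle (grey).

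LTα1β2 alone raised part of the core particle, and no regulatory subunit was called higher. Against vehicle, 7 of 35 genes were called higher, all of the core, where 12.8% of all genes tested were higher. A further 2 were called lower, where 10.6% of all genes were lower. Calls are an adjusted p under 0.05 in edgeR's quasi-likelihood test with Benjamini-Hochberg adjustment over 18812 genes. The median log2 change was 0.26 over the 15 core genes tested and -0.02 over the 20 regulatory genes, beside -0.04 over all genes. No regulatory gene was called higher by edgeR, DESeq2 or limma voom, and 0 were higher at an unadjusted p under 0.05. The count of higher genes was 4 without vehicle replicate 1, 3 without vehicle replicate 2 and 3 without LTα1β2 replicate 2, and the count of lower genes was 0 without any 1 of the vehicle or LTα1β2 libraries. Scaled by total counts rather than TMM factors, 3 genes were higher (Psma5, Psma7 and Psmb2) and 6 lower (Psma8, Psmc6, Psmd1, Psmd5, Psmd8 and Psmd11), with a median of all genes of -0.23.

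The α ring forms the gated outer rings of the barrel, and 5 of its 7 genes rose with LTα1β2. Psma5 (chromosome 3, 108256926 to 108279974) had 108 and 102 CPM in vehicle, 216 and 240 CPM with LTα1β2 and 322 and 340 CPM with both agents. The groups did not overlap, and each step was upward. The rise with LTα1β2 was 1.12 on the log2 scale (SE 0.10, edgeR adjusted p = 0.000251), or 2.18-fold. Psma7, Psma4, Psma2 and Psma1 rose by 0.44 to 0.52. Psma3 (0.26, edgeR adjusted p = 0.0743) and Psma6 (0.14, edgeR adjusted p = 0.286) were not called. Psma6, the smallest change of the ring, had 142 and 137 CPM in vehicle and 154 and 155 CPM with LTα1β2. Its libraries did not overlap, which held in this direction for 29.6% of all genes tested. Psma8 went the other way, from 5.0 and 4.32 CPM to 2.94 and 2.09 CPM (log2 change -0.90, edgeR adjusted p = 0.0314).

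Among the structural β subunits, 2 of 4 rose with LTα1β2. Psmb2 had 175 and 170 CPM in vehicle, 263 and 279 CPM with LTα1β2 and 276 and 288 CPM with both agents. Its rise of 0.65 (SE 0.09, edgeR adjusted p = 0.00218) came with LTα1β2, and the libraries of the 2 treated groups overlapped. Psmb4 was just past the threshold (0.31, edgeR adjusted p = 0.0496), and that call was lost in 9 of 14 alternatives. Psmb1 had 138 and 127 CPM in vehicle, 148 and 152 CPM with LTα1β2 and 156 and 157 CPM with both agents, and was called in no comparison. Psmb3, with a change of 0.20, was also not called.

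None of the catalytic subunits was called with LTα1β2, by edgeR, DESeq2 or limma voom, and 0 of the 3 had an unadjusted p under 0.05. Psmb5, with chymotrypsin-like activity, had 148 and 139 CPM in vehicle and 168 and 171 CPM with LTα1β2 (log2 change 0.24, SE 0.14, edgeR adjusted p = 0.246). Psmb6, with caspase-like activity, had 202 and 209 CPM and then 224 and 229 CPM (0.14, SE 0.12, edgeR adjusted p = 0.445). Psmb7, with trypsin-like activity, had 53.6 and 49.6 CPM and then 53.0 and 55.7 CPM (0.07, SE 0.10, edgeR adjusted p = 0.639), with overlapping libraries. Psmb6 and Psmb7 took a negative sign when scaled by total counts.

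In the regulatory particle, 1 of 20 genes was called with LTα1β2, and it was lower. Psmd5, a chaperone of base assembly, had 114 and 120 CPM in vehicle, 90.9 and 89.7 CPM with LTα1β2 and 127 and 132 CPM with both agents. The fall with LTα1β2 was -0.37 on the log2 scale (SE 0.09, edgeR adjusted p = 0.0226). The base ATPases Psmc1 to Psmc6, which unfold the substrate, ranged from -0.26 (Psmc6) to 0.13 (Psmc3). Psmc6 had 81.0 and 74.0 CPM in vehicle, 64.5 and 65.2 CPM with LTα1β2 and 91.9 and 82.9 CPM with both agents. The other base subunits were Psmd1 at -0.23, Psmd4, a ubiquitin receptor, at 0.10 and Psmd2 at 0.15. Psmd2 had 432 and 431 CPM in vehicle, 459 and 496 CPM with LTα1β2 and 505 and 527 CPM with both agents. The lid genes Psmd3, Psmd6, Psmd7, Psmd8, Psmd11, Psmd12, Psmd13 and Psmd14, the last of which encodes the deubiquitinase, ranged from -0.14 (Psmd6) to 0.06 (Psmd13). Psmd6 had 107 and 97.5 CPM and then 90.1 and 95.0 CPM, and Psmd13 had 106 and 103 CPM and then 105 and 113 CPM. The other chaperones, Psmd9 (-0.04) and Psmd10 (0.07), were not called.

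**Figure D2:**
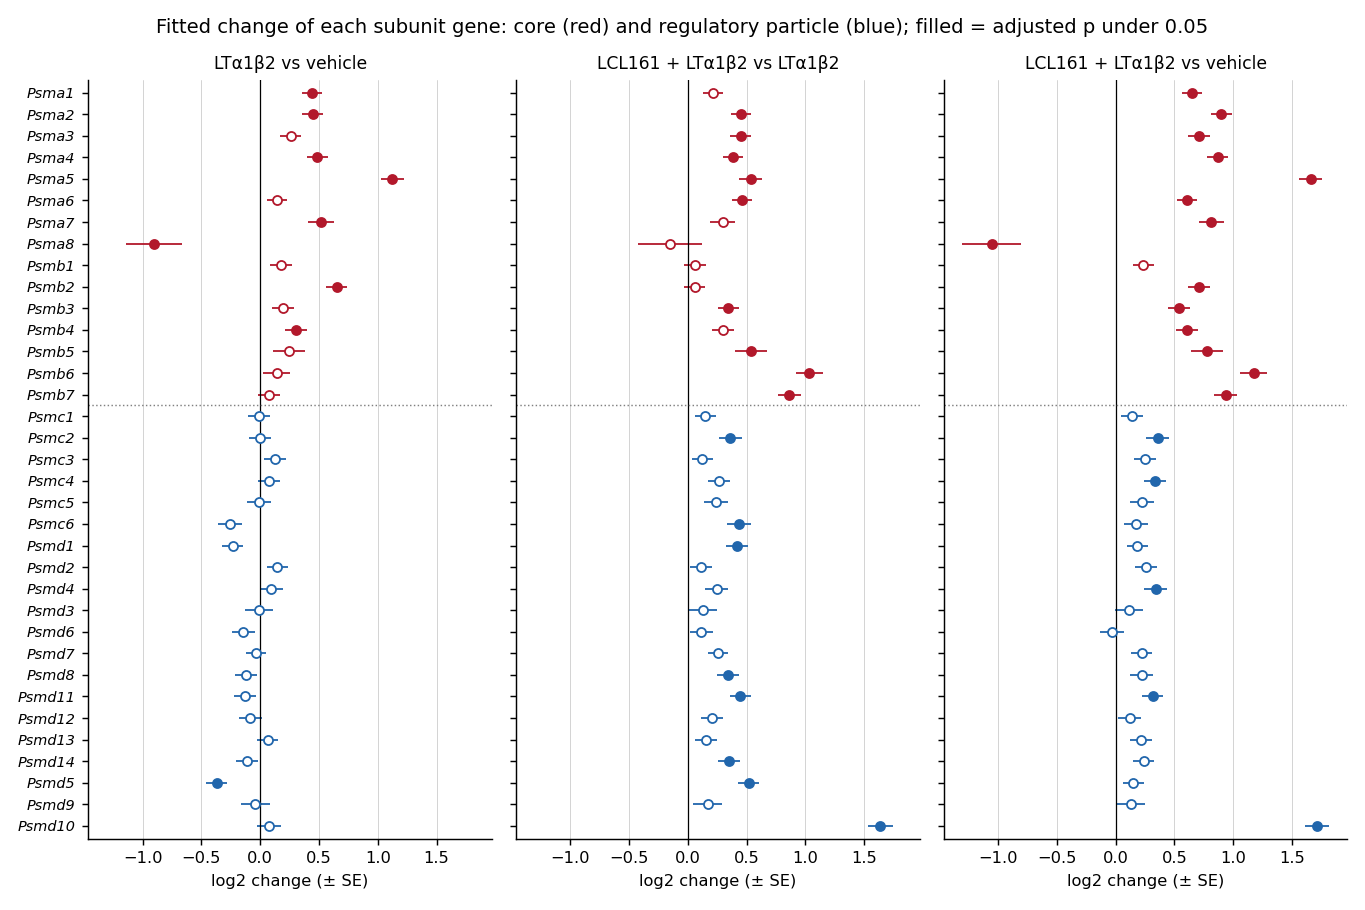
Fitted log2 change with its standard error for each of the 35 tested genes in the 3 comparisons; core genes are red, regulatory genes blue, and filled symbols passed an adjusted p under 0.05. With LTα1β2 the filled symbols to the right are core genes only, in the middle panel Psmb6, Psmb7 and Psmd10 lie farthest right, and in the last panel 13 core and 5 regulatory genes are filled to the right.

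Adding LCL161 to LTα1β2 raised subunits of both particles. Against LTα1β2 alone, 17 of 35 genes were called higher, 9 of the core and 8 regulatory, where 10.6% of all genes tested were higher. None was called lower by edgeR, DESeq2 or limma voom, and 0 were lower at an unadjusted p under 0.05, where 15.1% of all genes were called lower. The median log2 change was 0.38 over the core and 0.25 over the regulatory genes, beside 0.00 (0.0045) over all genes. Of 35 changes 34 were positive, beside 9482 of 18812 over all genes. Psmb1, Psmb2, Psmd2 and Psmd6 turned negative with total count scaling and with no filter beyond 1 read, and Psmc3 and Psmd3 with the latter only. The 17 calls became 10 without vehicle replicate 1 or vehicle replicate 2, 4 without LTα1β2 replicate 1 or replicate 2, and 8 and 7 without LCL161 plus LTα1β2 replicate 1 and replicate 2. They became 10 with total count scaling, where the median of all genes was -0.12, and 6 with no filter beyond 1 read. With no filter the median of all genes was 0.21 and that of the regulatory genes 0.11. Psmb6, Psmb7 and Psmd10 were called higher in all 14 alternatives run.

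Of the catalytic subunits, Psmb6 and Psmb7 made the largest steps of the core, and Psmb5 made a step like that of the α subunit Psma5 (each 0.54). Psmb6 went from 224 and 229 CPM to 415 and 511 CPM, a log2 change of 1.03 (SE 0.12, edgeR adjusted p = 0.000742), or 2.05-fold. Psmb7 (chromosome 2, 38588036 to 38644087) went from 53.0 and 55.7 CPM to 99.1 and 98.6 CPM (0.86, SE 0.10, edgeR adjusted p = 0.0007), or 1.82-fold. The libraries of both genes were far apart between the groups. Nek6 overlaps Psmb7 on the opposite strand and was itself called higher in this step (0.42, edgeR adjusted p = 0.015), and without strand the reads of the pair cannot be told apart. Psmb5 went from 168 and 171 CPM to 213 and 280 CPM (0.54, SE 0.14, edgeR adjusted p = 0.0248), with the 2 treated libraries unlike each other. Its call was lost in 5 of the 6 fits that left out a library, and its change was 0.26 without LCL161 plus LTα1β2 replicate 2 and 0.70 without replicate 1. The microRNA gene Mir686 overlaps Psmb5 on the same strand and is listed with 488 to 844 reads. With those reads added to Psmb5, a check chosen after seeing the data, its step was 0.50 (edgeR adjusted p = 0.0346).

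Of the α ring, 5 of 7 genes rose in the LCL161 step, Psma5 by 0.54 (SE 0.10, edgeR adjusted p = 0.00677) and Psma2, Psma3, Psma4 and Psma6 by 0.38 to 0.46. Psma1 and Psma7 were not called, and Psma1 had the smallest change, from 224 and 226 CPM to 261 and 259 CPM (0.21, edgeR adjusted p = 0.107). Of the structural β subunits Psmb3 alone was called, from 159 and 157 CPM to 192 and 209 CPM (0.34, edgeR adjusted p = 0.0295). Psmb4 (0.30, edgeR adjusted p = 0.0512), Psmb1 and Psmb2 (each 0.06) were not. Psma8 had 2.19 and 2.30 CPM with both agents and was not called against LTα1β2 alone.

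The largest change of any subunit gene in this step was that of Psmd10, which encodes gankyrin, a chaperone that holds the ATPase Psmc4 during assembly of the base. Psmd10 (chromosome X, 140948429 to 140956728) had 38.4 and 33.9 CPM in vehicle and 38.4 and 37.7 CPM with LTα1β2, and 117 and 120 CPM with both agents. The vehicle and LTα1β2 libraries overlapped, and both LCL161 libraries were far above them. The log2 change was 1.64 (SE 0.10, edgeR adjusted p = 8.15e-05), or 3.11-fold, and was 1.5 to 1.68 over the alternatives. Psmd5 rose by 0.52 (SE 0.09, edgeR adjusted p = 0.00545), and with both agents it was not called against vehicle (0.15, edgeR adjusted p = 0.22). Psmd9, the chaperone with the smallest change, had 30.4 ± 0.50 CPM in vehicle, 29.5 ± 0.56 with LTα1β2 and 33.2 ± 4.41 with both agents (SD, n = 2), and was not called.

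Of the other regulatory genes Psmc2, Psmc6, Psmd1, Psmd8, Psmd11 and Psmd14 were called higher in the LCL161 step, by 0.34 to 0.45. Psmc2 went from 124 and 136 CPM to 161 and 174 CPM, and Psmd11, the largest of the lid, from 122 and 132 CPM to 175 and 172 CPM (0.45, SE 0.09, edgeR adjusted p = 0.0109). The calls of these 6 genes were lost in 5 to 8 of 14 alternatives. Psmc1, Psmc3, Psmc4, Psmc5, Psmd2, Psmd3, Psmd4, Psmd6, Psmd7, Psmd12 and Psmd13 were not called, with changes of 0.11 to 0.26. Psmd6 had the smallest change of the lid, from 90.1 and 95.0 CPM to 104 and 96.8 CPM.

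**Figure D3:**
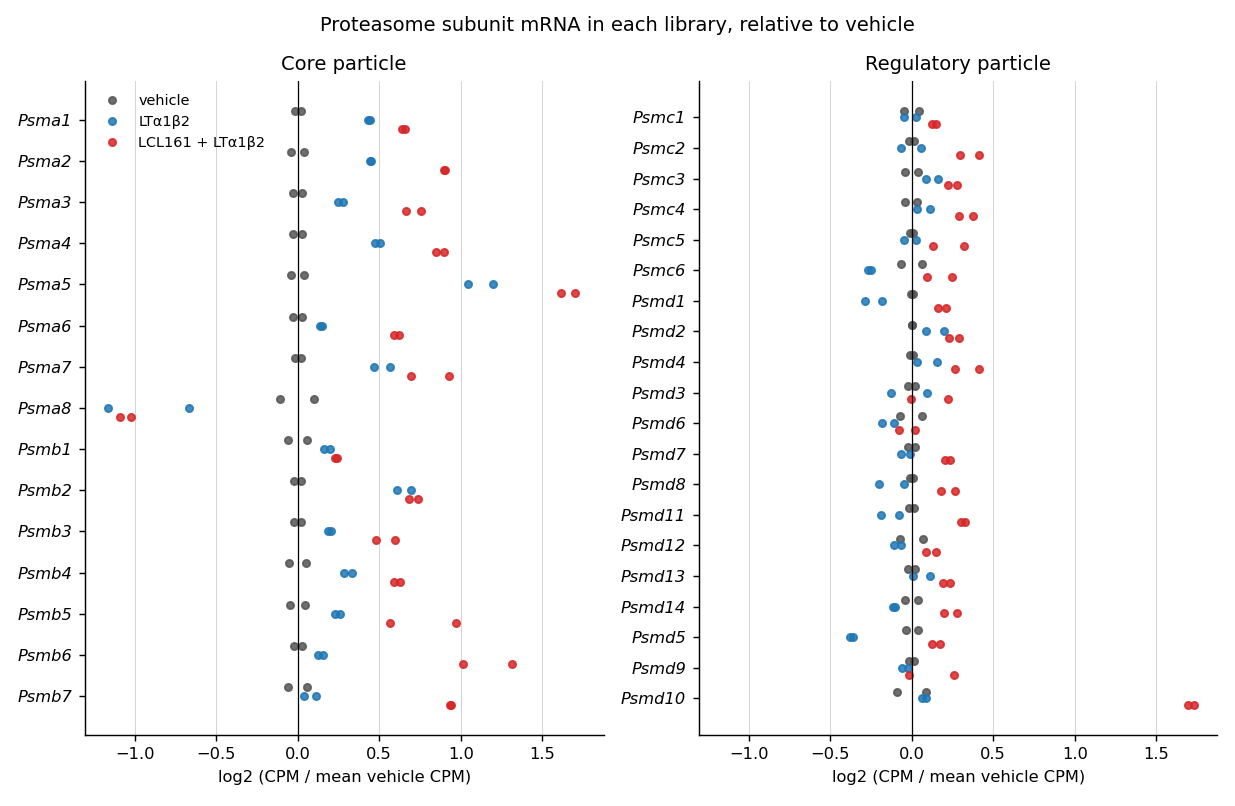
CPM of each gene in each library as log2 of its ratio to the mean of the vehicle libraries, for 15 core and 20 regulatory genes; each dot is 1 library. The 14 core genes other than Psma8 have both LCL161 plus LTα1β2 libraries (red) above vehicle (grey), with the LTα1β2 libraries (blue) between them for most, while regulatory genes other than Psmd10 lie closer to 0, and Psmd10 is near 0 in vehicle and LTα1β2 and high in the LCL161 libraries.

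Against vehicle, LCL161 plus LTα1β2 raised 13 of 15 core genes and 5 of 20 regulatory genes, where 18.4% of all genes were called higher. The regulatory count is near that share, and it moved with the filter and the scaling. This comparison shares its libraries with the preceding ones. Of 35 genes 18 were called higher, where 18.4% of all genes were, and 1 was called lower, where 21.1% were. The core genes not called higher were Psma8, which was lower, and Psmb1, and the regulatory genes called were Psmc2, Psmc4, Psmd4, Psmd10 and Psmd11. With a filter of at least 1 CPM in 2 libraries 26 genes were called higher, 14 core and 12 regulatory, and with total count scaling 12, of which 11 core and 1 regulatory. The medians were 0.71 and 0.22 on the log2 scale, beside 0.05 for all genes. Psma5 was 3.16-fold higher (log2 change 1.66, SE 0.10, edgeR adjusted p = 1.25e-05), Psmd10 3.28-fold (1.71, SE 0.10, edgeR adjusted p = 1.25e-05) and Psmb6 2.26-fold (1.17, SE 0.12, edgeR adjusted p = 0.000157). Psma1 to Psma7, Psmb2, Psmb5, Psmb6, Psmb7 and Psmd10 were called higher in all 14 alternatives. The 4 other regulatory calls, with changes of 0.32 to 0.36, were lost with total count scaling, where the regulatory median was -0.09, the median of all genes was -0.26, and Psmd6 was called lower. Psma8 was lower by -1.06 (edgeR adjusted p = 0.0128), a call lost without vehicle replicate 1. Psmc1 had the smallest change of the base, with 180 and 192 CPM in vehicle and 206 and 203 CPM with both agents. Psmc2 had the largest of the base, with 129 and 132 CPM and then 161 and 174 CPM. Psmd11 had the largest of the lid, with 138 and 141 CPM and then 175 and 172 CPM. Psma6 had the smallest of the α ring, with 142 and 137 CPM and then 210.5 and 215 CPM.

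Summed over each particle, core mRNA was 1983 ± 40.5 CPM in vehicle, 2601 ± 19.7 with LTα1β2 and 3511 ± 166 with both agents (SD, n = 2). Regulatory mRNA was 2837 ± 19.9, 2776 ± 124 and 3381 ± 69.5 CPM. The ratio of core to regulatory CPM, which does not depend on the scaling of a library, was 0.713 and 0.686 in vehicle, 0.962 and 0.913 with LTα1β2, and 1.02 and 1.06 with both agents. The groups did not overlap, and an exact permutation test of 2 libraries against 2 cannot go below p = 0.333 (two-sided). On total counts the regulatory sum had a different order, 3233 and 3121 CPM in vehicle, 2640 and 2812 with LTα1β2 and 3102 and 2988 with both agents, while the core sum kept the rising order at 2304 and 2139, 2540 and 2567, and 3160 and 3161 CPM.

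**Figure D4:**
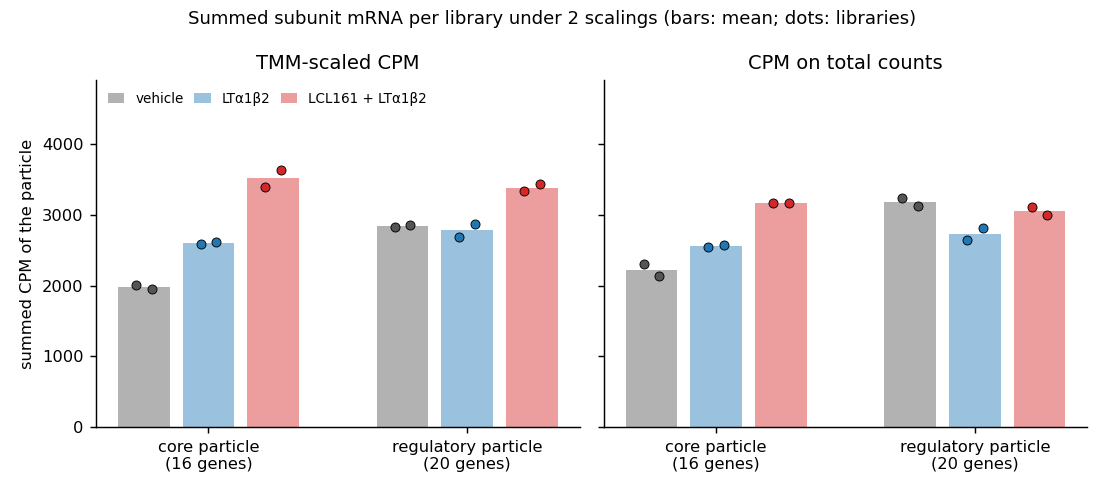
Summed CPM of the 16 core and 20 regulatory genes in each library (dots) with the group mean (bars), on TMM-scaled libraries at left and on total counts at right. The core sum is higher with each treatment on both scalings, while the regulatory sum with LCL161 plus LTα1β2 is above vehicle on the left and below it on the right.

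The inducible counterparts rose with LTα1β2, the step in which none of the constitutive catalytic subunits was called. Psmb8, which replaces Psmb5, had 84.4 and 81.9 CPM in vehicle, 690 and 687 CPM with LTα1β2 and 786 and 933 CPM with both agents. With LTα1β2, Psmb8 rose by 3.05, Psmb9, which replaces Psmb6, by 3.33, and Psmb10, which replaces Psmb7, by 2.90 on the log2 scale (largest edgeR adjusted p = 6.79e-06). In the LCL161 step their changes of 0.32, 0.14 and 0.24 were not called (edgeR adjusted p = 0.0643, 0.402 and 0.16). DESeq2 and limma voom called Psmb8 higher in this step. Its libraries did not overlap between the groups, which held in this direction for 33.7% of all genes tested. Whether the steps of a pair differ was not tested. Per kilobase of transcript, Psmb9 stood at 0.069 and 0.079 of Psmb6 in vehicle, 0.673 and 0.677 with LTα1β2 and 0.373 and 0.356 with both agents. Psmb10 stood at 0.575 and 0.64 of Psmb7, then 4.22 and 4.40, then 2.53 and 3.07. Psmb8 stood at 0.316 and 0.326 of Psmb5, then 2.27 and 2.21, then 2.04 and 1.84. All 3 ratios were highest with LTα1β2 alone, without overlap between the groups. On the opposite strand, Tap1 overlaps exons of Psmb9 and Gm20496 those of Psmb8. Without strand the reads of these pairs cannot be told apart, so the levels and ratios of Psmb9 and Psmb8 are uncertain.

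**Figure D5:**
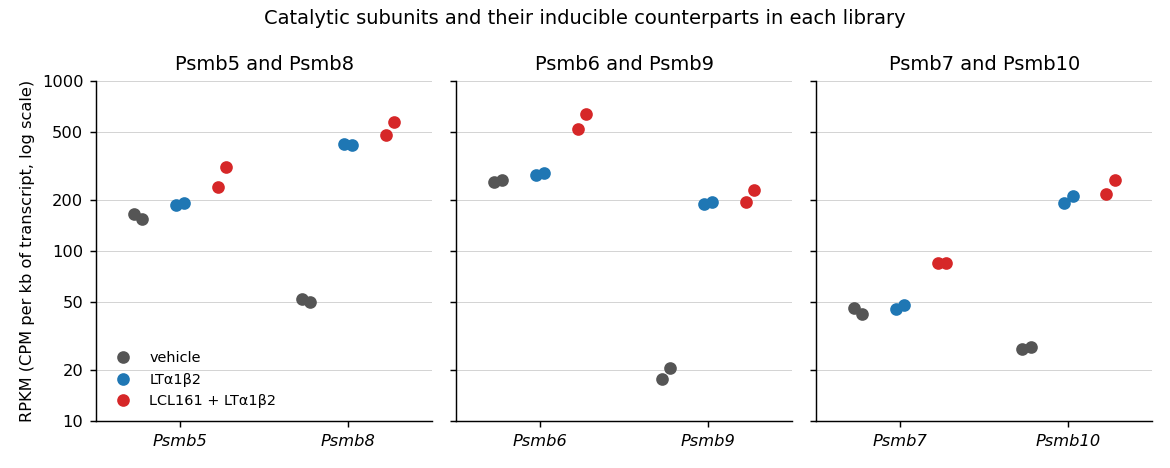
RPKM, the CPM per kilobase of transcript (log scale), of each constitutive catalytic subunit and its inducible counterpart in each library, coloured by group. Psmb8, Psmb9 and Psmb10 lie far above vehicle in both treated groups, while Psmb6 and Psmb7 have the LCL161 plus LTα1β2 libraries apart from the vehicle and LTα1β2 libraries, which lie close together.

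Genes that assemble, activate or supply the proteasome were examined from lists. Of 4 activators, 3 rose with LTα1β2: Psme1 and Psme2, the subunits of the PA28 cap, by 2.35 and 2.54, and Psme4 by 1.37. In the LCL161 step Psme1 and Psme2 rose again, by 0.42 and 1.12, and Psme4 was lower (-0.81, edgeR adjusted p = 0.0333). Psme4 had 41.7 and 43.5 CPM with LTα1β2. With both agents its libraries were unlike each other, at 18.0 and 30.8 CPM. Of 5 core assembly factors, Pomp, the maturation protein of the core, rose by 1.15 with LTα1β2 and by 0.33 with LCL161, and Psmg4 rose by 0.61 with LTα1β2. Psmg1, Psmg2 and Psmg3 were called in neither step.

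Of 8 other subunits and partners of the regulatory particle, Psmf1 (0.47) and Ube3c (1.45) rose and the deubiquitinase Usp14 fell (-0.46) with LTα1β2, and Txnl1 rose with LCL161 (0.53). Ube3c had a change of -0.90 in the LCL161 step (edgeR adjusted p = 0.0728), which DESeq2, limma voom and the fits with total count scaling or no filter called lower. Its libraries with both agents were unlike each other, at 18.8 and 43.0 CPM. The LTα1β2 call of Psmf1 was lost with total count scaling and that of Usp14 with no filter. Of 11 ubiquitin and shuttle genes, Ubb rose with LTα1β2 (0.53) and the shuttle Rad23b with LCL161 (0.37, edgeR adjusted p = 0.0448). The Rad23b call was lost with DESeq2, total count scaling and no filter. DESeq2 called Vcp higher in that step, and Ubqln1 higher and Rps27a lower with LTα1β2. The last list held the genes of the factors NFE2L1 and NFE2L2, and Ngly1 and Ddi2, whose products act on NFE2L1. Of these 4 genes, Nfe2l1, Nfe2l2 and Ngly1 were called higher and Ddi2 lower in the LCL161 step. The call of Ngly1 was lost with DESeq2, and those of Ngly1 and Nfe2l2 with total count scaling and with no filter. Nfe2l1 itself had 215 and 211 CPM in vehicle, 208 and 233 CPM with LTα1β2 and 341 and 360 CPM with both agents (0.67, SE 0.10, edgeR adjusted p = 0.00238). Nfe2l2 rose by 0.37 and Ngly1, the glycanase that processes NFE2L1, by 0.36. Ddi2, the protease that cleaves NFE2L1, was higher with LTα1β2 (0.47, edgeR adjusted p = 0.011, lost with total count scaling) and then lower with LCL161 (-0.53, edgeR adjusted p = 0.00594), from 95.0 and 88.4 CPM to 62.5 and 64.3 CPM. Rsc1a1 overlaps Ddi2 on the same strand, and the deposited counts of Ddi2 were not whole in any of the 6 libraries, so its level is uncertain.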

How the data were processed

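RNA from 6 libraries was analysed, with groups taken from the sample titles. The authors deposited expected counts per gene, unnormalised and keyed by symbol, of which 66.6% of non-zero values are whole. The submitters' processing notes name build GRCm38, STAR 2.7.3a and DESeq2 1.26.0. The counting program, annotation and strand setting were not given in the sources used here. A gene on the same strand overlaps exons of 2 subunit genes and a gene on the opposite strand those of 8, so their counts are uncertain. The same holds for several genes of the other lists, among them Psmb8, Psmb9, Psme1, Usp14, Txnl1, Rps27a, Vcp, Ngly1 and Ddi2.

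Counts were rounded and fitted in edgeR 4.0.16 (R 4.3.3) with TMM factors (0.874 to 1.15), filterByExpr (minimum count 10, 18812 genes kept) and a group-means quasi-likelihood model over all 6 libraries, two-sided, and a gene was called below an adjusted p of 0.05. The fit had 3 residual degrees of freedom and a biological coefficient of variation of 13.6%. The test was checked on simulated data in which the planted changes were larger than most changes of the subunit genes. The check does not bear on those smaller changes. Dividing a log2 change by the root of its F statistic gave its standard error. CPM use TMM-scaled library sizes. Per-kilobase levels use the length of the principal transcripts in GENCODE M21, a choice made after seeing the files. Alternatives used DESeq2 1.42.0, limma 3.58.1 (voom), other scalings and filters, only the groups compared, a replicate block and leaving out each library.

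The genes and lists were chosen with earlier results of these data known. Every subunit gene is named with its call; library values are given for Psmb5, Psmb6, Psmb7 and for the largest and smallest changes of each role, and for others that were chosen after their values were seen.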

Additional observations from a re-analysis of the deposited data

How the results depend on the processing

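With 2 libraries a group and 3 residual degrees of freedom, small changes sit near the threshold. Psmb11 had too few reads to test; how depth limits the other genes was not tested. Of the called changes, 2 of 7 higher with LTα1β2 (Psma5, Psmb2), 3 of 17 higher with LCL161 plus LTα1β2 against LTα1β2 (Psmb6, Psmb7, Psmd10) and 12 of 18 higher against vehicle were called in all 14 alternatives, and 0 of the lower calls were. Total count scaling differs from the main fit only in leaving out the TMM factors. These were 1.15 and 1.10 in vehicle, 0.985 and 0.984 with LTα1β2, and 0.936 and 0.874 with both agents. The cause of the differences between the other settings was not tested.

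With LTα1β2 against vehicle, total count scaling gave 3 higher and 6 lower, a core median of 0.071 and a regulatory median of -0.21. No filter beyond 1 read gave 1 lower, a core median of 0.34 and a regulatory median of 0.058, and DESeq2 gave 1 lower. Leaving out 1 library gave 3 to 6 higher, 0 to 2 lower, a core median of 0.23 to 0.34 and a regulatory median of -0.076 to 0.085. With LCL161 plus LTα1β2 against LTα1β2, total count scaling gave 10 higher and a regulatory median of 0.13, no filter gave 6 higher and 0.11, and leaving out 1 library gave 4 to 10 higher, with a regulatory median of 0.15 (without LTα1β2 replicate 1) to 0.29 and 0.16 without LCL161 plus LTα1β2 replicate 2. Against vehicle, total count scaling gave 2 lower, a core median of 0.40 and a regulatory median of -0.09, and leaving out 1 library gave 0 to 1 lower and a regulatory median of 0.14 (without LCL161 plus LTα1β2 replicate 2) to 0.23. With at least 1 CPM in 2 libraries, 26 were higher, 12 of them regulatory. Total count scaling moved the share of all calls that are higher from 54.8% to 33%, from 41.2% to 28% and from 46.6% to 24.6% in the 3 comparisons in this order, and the median of all genes to -0.23, -0.12 and -0.26. With no filter beyond 1 read, the median of all genes was 0, 0.21 and 0.43. The regulatory medians there were 0.058, 0.11 and 0.17.

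With a replicate block, the counts of higher and lower calls were 6 and 2, 17 and 0, and 18 and 1. Deviations of same-numbered libraries correlated at 0.14 (vehicle and LTα1β2), 0.094 (vehicle and both agents) and 0.16 (LTα1β2 and both agents) over 18812 genes, and the labels state no pairing, so the numbers were not taken to pair the libraries.

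Of 1470 log2 changes of single genes under the alternatives, 72 changed sign, and 0 of these passed the test in either fit. With total count scaling the values that changed sign were, for LTα1β2 against vehicle, Psma6 -0.047, Psmb1 -0.013, Psmb6 -0.050, Psmb7 -0.12, Psmc3 -0.064, Psmc4 -0.12, Psmd2 -0.044, Psmd4 -0.095, Psmd13 -0.13 and Psmd10 -0.12. For LCL161 plus LTα1β2 against LTα1β2 they were Psmb1 -0.063, Psmb2 -0.064, Psmd2 -0.010 and Psmd6 -0.0041. Against vehicle they were Psmb1 -0.076, Psmc1 -0.17, Psmc3 -0.062, Psmc5 -0.087, Psmc6 -0.14, Psmd1 -0.12, Psmd2 -0.054, Psmd3 -0.20, Psmd7 -0.090, Psmd8 -0.090, Psmd12 -0.19, Psmd13 -0.097, Psmd14 -0.072, Psmd5 -0.16 and Psmd9 -0.19. With no filter beyond 1 read they were, for LTα1β2 against vehicle, Psmc1 0.072, Psmc2 0.080, Psmc5 0.070, Psmd3 0.071, Psmd7 0.046 and Psmd9 0.041, and for LCL161 plus LTα1β2 against LTα1β2 Psmb1 -0.080, Psmb2 -0.080, Psmc3 -0.014, Psmd2 -0.026, Psmd3 -0.012 and Psmd6 -0.024. With only the 2 groups compared, LTα1β2 against vehicle gave Psmc1 0.025, Psmc2 0.033, Psmc5 0.023 and Psmd3 0.024. With at least 1 CPM in 2 libraries, Psmc2 was 0.0014 with LTα1β2 and Psmd6 0.022 with both agents against vehicle.

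Ranges over the left-out libraries that crossed 0 were, for LTα1β2 against vehicle, Psmc1 -0.062 to 0.10, Psmc2 -0.077 to 0.14, Psmc5 -0.058 to 0.10, Psmd3 -0.14 to 0.17, Psmd7 -0.074 to 0.069, Psmd8 -0.21 to 0.033, Psmd11 -0.20 to 0.0024, Psmd12 -0.16 to 0.013, Psmd9 -0.071 to 0.055 and Psmd10 -0.016 to 0.16. For LCL161 plus LTα1β2 against LTα1β2 they were Psma8 -0.42 to 0.040, Psmb1 -0.025 to 0.045, Psmb2 -0.050 to 0.067, Psmd2 -0.0072 to 0.13, Psmd3 -0.059 to 0.22 and Psmd9 -0.038 to 0.28. Against vehicle they were Psmd3 -0.072 to 0.21 and Psmd9 -0.081 to 0.24.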

Other observations

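Coding genes that start within 1000 bases of a subunit gene on the opposite strand gave 9 pairs. Psmd10 starts 179 bases from Atg4a, which encodes an autophagy protease. In the LCL161 step Atg4a was also called higher, from 20.01 ± 0.14 CPM to 32.2 ± 4.01 CPM (SD, n = 2; log2 change 0.68, SE 0.13, edgeR adjusted p = 0.00792), less than the 1.64 of Psmd10. Psma2 starts 75 bases from the mitochondrial ribosomal gene Mrpl32, which was higher by 0.68 (SE 0.15, edgeR adjusted p = 0.0136) in the same step, beside 0.45 for Psma2. Dnajc2, 32 bases from Psmc2, had 0.32 (edgeR adjusted p = 0.0733) beside 0.36. Tbp, 137 bases from Psmb1, had 0.03 (edgeR adjusted p = 0.888) and Psmb1 0.06. Ss18l1 beside Psma7, Ftsj3 beside Psmc5, Sirt3 beside Psmd13 and AY074887 beside Psma4 were not called in this step, and Cutal beside Psmd5 was not tested. Psmb7 overlaps Nek6 on the opposite strand, and Nek6 was called higher in the LCL161 step too, by 0.42 (SE 0.09, edgeR adjusted p = 0.015), so reads of the pair cannot be told apart without strand.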
